A study of Mus musculus domesticus and Mus musculus domesticus x Mus musculus castaneus and Mus musculus castaneus with 10 samples.

Results

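The genes described here encode subunits of the PAF complex (Ctr9, Paf1, Leo1, Cdc73 and Rtf1) and of the super elongation complex (Mllt3, Mllt1, Aff4, Cdk9 and Ccnt1), which act on RNA polymerase II while it transcribes. They were matched by symbol, and all 10 were found among the 26808 genes of the deposited count table. The study asked how gene regulation has diverged between the mouse subspecies Mus musculus castaneus and laboratory mice, and Ctr9 and Mllt3 are 2 of the regulators whose binding sites it examined upstream of translation genes. RNA-seq of CAST/EiJ pluripotent stem cells was used here, in 2 libraries called replicate 1 and replicate 2. These cells were homozygous for the CAST/EiJ genome and were induced pluripotent stem cells, made from embryonic fibroblasts with retroviral vectors for Oct4, Sox2 and Klf4. They were undifferentiated, were grown on irradiated fibroblast feeder cells in medium with LIF and serum, and were depleted of feeders before RNA was extracted. The labels name no treatment. They give a different batch for each library, and an effect of batch therefore cannot be told apart from other differences between the libraries. The sources do not say how many clones or separate cultures the 2 libraries stand for, so that the spread between them may be technical. The remaining samples, 4 of 129S6/SvEv stem cells and 4 of 129CAS hybrid cells, were not analysed here, so that no comparison between genotypes was made and no test across genes was run.

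As background, RNA polymerase II often stops shortly after it starts, held by the factors DSIF and NELF. The kinase P-TEFb, made of Cdk9 and a cyclin T, phosphorylates these factors and the polymerase and lets it go on. The super elongation complex brings P-TEFb to chromatin through scaffold proteins of the Aff family and readers of acetylated histones, Mllt1 and Mllt3. The PAF complex then travels with the polymerase and is needed for ubiquitin marks on histone H2B along the gene. In mouse embryonic stem cells the PAF complex is known for a role in keeping pluripotency.

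Mllt1 and Mllt3 are paralogs, so a stretch shared by their coding sequences is shown, which bears on whether their reads can be told apart. The longest stretch without a difference was 17 bases, printed in capitals with 30 flanking bases on each side. The window of highest identity was not sought. The windows were read from transcripts of the GENCODE M21 annotation of GRCm38, whose sequence is that of the C57BL/6J reference and not of CAST/EiJ. Each lies within 1 coding exon, at bases 103 to 179 of both coding sequences. The Mllt3 window lies on the minus strand of chr4:88031538-88031614 and the Mllt1 window on the minus strand of chr17:56927006-56927082.
Mllt3: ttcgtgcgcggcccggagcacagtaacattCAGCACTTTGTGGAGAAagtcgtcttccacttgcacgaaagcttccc
Mllt1: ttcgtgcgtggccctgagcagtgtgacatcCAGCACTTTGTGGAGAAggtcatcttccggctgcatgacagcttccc
Of the 77 bases of this window, 64 were identical and 13 differed. Ccnt1 and its paralog Ccnt2 are shown in the same way, since either cyclin can partner Cdk9. Their longest stretch without a difference was 20 bases, in windows at chr15:98546747-98546826 (minus strand, Ccnt1) and chr1:127799472-127799551 (plus strand, Ccnt2).
Ccnt1: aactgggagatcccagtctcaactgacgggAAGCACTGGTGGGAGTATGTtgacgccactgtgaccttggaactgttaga
Ccnt2: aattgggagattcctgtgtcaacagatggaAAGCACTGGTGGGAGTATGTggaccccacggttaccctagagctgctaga
Here 65 of 80 bases were identical. Among windows of 75 bases along the longest transcript of each of the 10 genes, 9 genes shared none with a transcript of any other gene. Ccnt1 shared 574 windows (7.84%) with 1 gene, 9330020H09Rik, an antisense RNA that overlaps 695 bases of its exons. The strand setting of the counting is not given in the sources used here, so that reads in this overlap cannot be assigned to Ccnt1 or to the antisense gene, for which no count was used here. Cdc73 shares 679 exon bases with B3galt2 on the other strand, which had 2 counts in replicate 1 and 14 in replicate 2.

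The libraries held 14460393 and 13728098 counts on genes, and each level is the count divided by this total and multiplied by 1000000 (CPM). At this depth 3 counts, taken as the detection limit, equal 0.207 and 0.219 CPM. Of the 14 pluripotency markers looked at, 12 had a row in the table, and these lay between 64.9 and 903 CPM in the 2 libraries, with Pou5f1, Sox2 and Klf4 also supplied by the vectors. The 11 neuron markers summed to 225 and 176 CPM, most of it from Stmn2 (124 and 117 CPM) and Tubb3 (81.2 and 44.2 CPM), while Syt1 and Chat had 0 counts in both libraries. Fibroblast markers, which feeder cells would bring, were present at unequal levels. Dcn (3.25 and 3.21 CPM), Lum (2.07 and 1.31 CPM), Pdgfra (3.18 and 2.55 CPM) and Pdgfrb (6.15 and 6.63 CPM) were low. After TMM scaling of the library sizes their count ratios had intervals that included 1, as did those of Sparc and Vim. With library totals those of Sparc and Vim did not. The 16 fibroblast markers summed to 6883 CPM in replicate 1 and 4295 CPM in replicate 2. After TMM scaling, 14 of them were higher in replicate 1 (median log2 ratio 0.71). Of the 16, 7 (43.8%) were at least 2-fold apart, against 9.11% of all genes with at least 10 counts. These 7 were higher in replicate 1, namely Col1a1 (1726 and 777 CPM, 2.13-fold), Col1a2 (2.90-fold), Col3a1 (2.51-fold), Col5a1 (2.72-fold), Lox (2.85-fold), Thy1 (2.46-fold) and Fbn1 (4.65-fold). The 12 pluripotency markers summed to 6091 and 4700 CPM, with 9 higher in replicate 1 (median log2 ratio 0.31). Klf2 was 2.18-fold and Klf4 2.17-fold higher there, while Pou5f1 was 1.39-fold higher in replicate 2. Germ layer markers went the other way, with 10 genes summing to 31.9 and 60.7 CPM. Of the 8 with enough counts to compare, 7 were higher in replicate 2 (median log2 ratio -0.90), among them Gata6 with 10 and 99 counts and Hand1 with 4 and 51. The libraries thus stood apart in genes of each of these lists. Feeder cells also carry RNA of general transcription factors, and the part of these marker differences in the values below was not tested. Fewer cells expressing a gene and less RNA per cell cannot be told apart in bulk RNA.

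All 5 PAF complex genes were expressed in CAST stem cells, at levels of 62.9 to 107 CPM in either library. Ctr9, the scaffold subunit of the complex (chromosome 7, 111028951 to 111056377 of GRCm38), had 1407 counts in replicate 1 and 980 in replicate 2. These equal 97.3 CPM (95% exact Poisson interval 92.3 to 103) and 71.4 CPM (67.0 to 76.0), or 84.3 ± 18.3 CPM (SD, n = 2). Intervals here and below cover counting error only. The intervals of Ctr9 did not overlap, so that the difference between its libraries was larger than counting error, and its SD was the largest among the PAF complex genes.

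Paf1, the subunit that gives the complex its name (chromosome 7, 28392951 to 28399388), had 1051 and 1127 counts, equal to 72.7 and 82.1 CPM, or 77.4 ± 6.66 CPM (SD, n = 2). Leo1, which forms a pair with Paf1 within the complex (chromosome 9, 75441524 to 75466432), had 910 and 995 counts, or 62.9 and 72.5 CPM. Both were thus higher in replicate 2, the reverse of Ctr9.

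Cdc73, the subunit known as parafibromin (chromosome 1, 143598800 to 143702893), had 1388 and 1330 counts and 96.0 and 96.9 CPM. Its mean of 96.4 ± 0.633 CPM (SD, n = 2) had the smallest SD relative to the mean among the 10 genes. Rtf1, which carries the part of the complex that promotes ubiquitin on H2B and is less tightly bound to the rest in mammals (chromosome 2, 119675068 to 119735407), had 1552 and 1340 counts and 107 and 97.6 CPM. For Cdc73 and Rtf1 the intervals of the 2 libraries overlapped. The interval of the count ratio of Rtf1 nevertheless did not include 1 when scaled by library totals.

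Genes of the super elongation complex were all detected, but Mllt3 by far fewer counts than the other 4. Mllt3 (AF9, chromosome 4, 87769925 to 88033364), a reader of acetylated histones, had 140 counts in replicate 1 and 122 in replicate 2. These equal 9.68 CPM (8.14 to 11.4) and 8.89 CPM (7.38 to 10.6), or 9.28 ± 0.562 CPM (SD, n = 2). Mllt3 was low but far above the detection limit in both libraries, and its libraries did not differ beyond counting error. Its paralog Mllt1 (ENL, chromosome 17, 56892611 to 56935415), which reads the same marks, had 613 and 559 counts, or 42.4 and 40.7 CPM.

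Aff4, the scaffold on which the complex is built (chromosome 11, 53350833 to 53421830), had 3209 and 2852 counts, equal to 222 and 208 CPM, or 215 ± 10.02 CPM (SD, n = 2). Its intervals overlapped, at 214 to 230 CPM in replicate 1 and 200 to 216 CPM in replicate 2. The interval of its count ratio nevertheless did not include 1 when scaled by library totals.

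Cdk9, the kinase of P-TEFb (chromosome 2, 32705784 to 32713076), had 1020 and 1371 counts. These equal 70.5 CPM and 99.9 CPM (94.7 to 105), or 85.2 ± 20.7 CPM (SD, n = 2). Ccnt1, the cyclin that activates it (chromosome 15, 98538689 to 98570923), had 1624 and 1173 counts, equal to 112 CPM (107 to 118) and 85.4 CPM (80.6 to 90.5). The partners of P-TEFb thus differed in opposite directions. Cdk9 was higher in replicate 2 and Ccnt1 in replicate 1, each with intervals that did not overlap, and the cause was not tested.

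**Figure D1:**
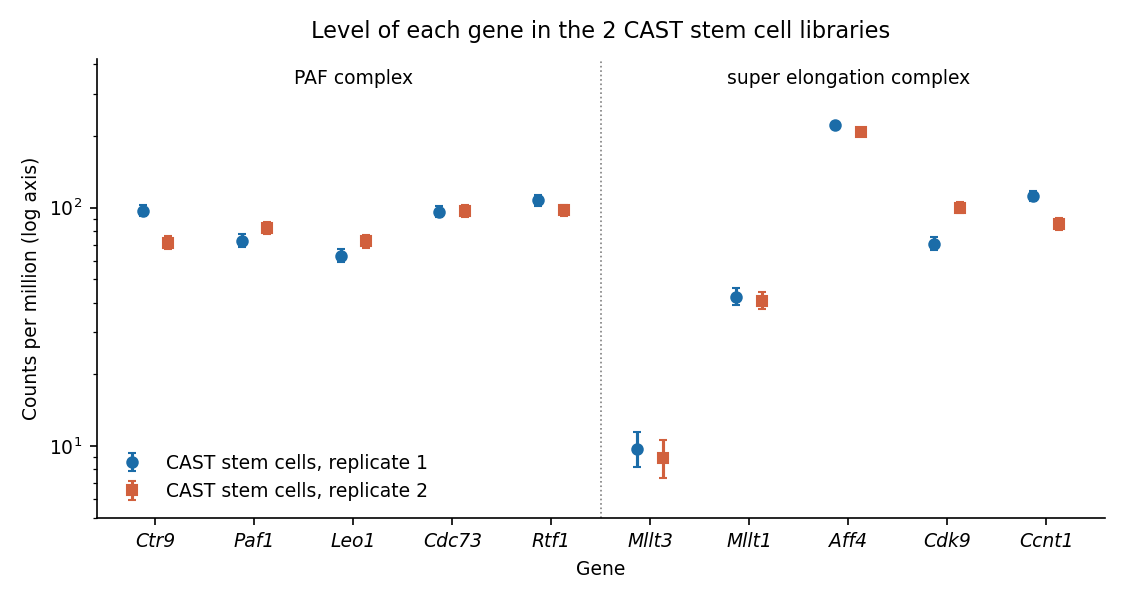
CPM of each gene (log axis) in CAST stem cells, with circles for replicate 1, squares for replicate 2 and bars for the 95% exact Poisson interval, which covers counting error only. Ctr9 and Ccnt1 are higher in replicate 1, Cdk9 is higher in replicate 2, and Mllt3 lies at 9.68 and 8.89 CPM.

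Levels of different genes can be set side by side only per length, so CPM were divided by the length of the longest annotated transcript in kilobases. On this scale the order from high to low was Paf1 (38.6 CPM per kilobase), Cdk9 (23.9), Rtf1 (22.0), Aff4 (21.3), Ctr9 (19.6), Leo1 (14.8), Ccnt1 (13.4), Mllt1 (11.4), Cdc73 (8.32) and Mllt3 (1.53). Paf1 lay above Cdk9 in both libraries, although their values overlapped with joined exons. The values of Cdk9, Rtf1, Aff4 and Ctr9 overlapped between neighbours over the 2 libraries, so that this part of the order was within their spread. The same was true of Leo1 with Ccnt1 and of Ccnt1 with Mllt1. Cdc73 lay below Mllt1 and Mllt3 below Cdc73 in both libraries.

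Mllt3 was the lowest of the 10 genes per kilobase under every length tried. Mllt1 stood at 7.31 times Mllt3 in replicate 1 and 7.65 times in replicate 2 on the longest transcript, and at 13.4 and 14.0 times when all exons of each gene were joined. The PAF complex genes lay within 4.64-fold of each other by their means per kilobase, and within 4.11-fold with joined exons. Among the super elongation complex genes the span was 15.6-fold, 23.9-fold with joined exons, 32.1-fold with the transcript of the longest coding sequence and 58.4-fold with the median transcript length. Without Mllt3, the remaining 4 of these genes ran from 11.4 to 23.9 CPM per kilobase.

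The longest annotated transcripts of Cdk9 and Leo1 have no coding sequence. With the transcript that has the longest coding sequence, the level of Cdk9 rose from 23.9 to 49.2 CPM per kilobase and that of Leo1 from 14.8 to 31.1. Cdk9 then had a higher mean than Paf1, although the values of the 2 genes overlapped. Ctr9 was lower with joined exons (10.5 CPM per kilobase) than with its longest transcript (19.6), a change that moved it from rank 5 to rank 8. Levels per kilobase of the longest transcript were also compared with those of the 13824 genes that had 10 or more counts over both libraries. Paf1 lay above 85.5%, Ctr9 above 72.9%, Cdk9 above 77.0%, Cdc73 above 54.3% and Mllt3 above 26.4%. These shares were not computed with the other lengths.

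**Figure D2:**
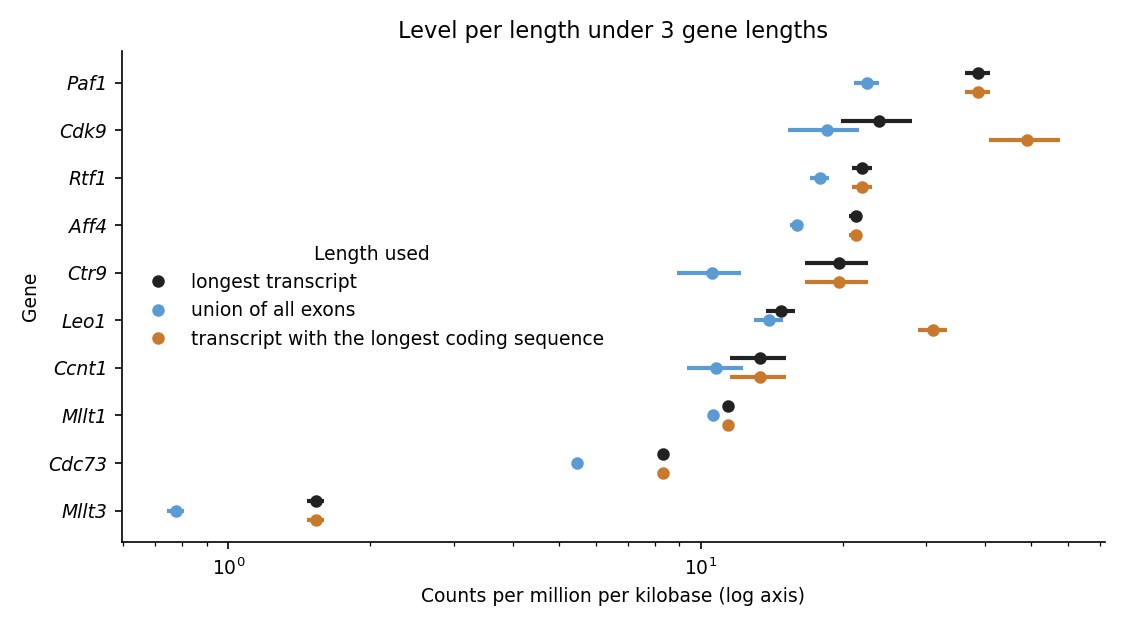
CPM per kilobase (log axis) of each gene under 3 gene lengths, where the point is the mean of the 2 CAST libraries and the bar runs from the lower to the higher library. Mllt3 is lowest under all 3 lengths, and Cdk9 and Leo1 move most, to 49.2 and 31.1, when the transcript with the longest coding sequence is used.

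The difference between the libraries was expressed as the log2 ratio of replicate 1 to replicate 2 after TMM scaling, with a pseudocount of 0.5 CPM. There is 1 library on each side, so that no test was possible and no p-value is given. None of the 10 genes was 2-fold apart, where 9.11% of the 13824 genes were. None was 1.5-fold apart either, where 24.3% of all genes were. The 10 genes are not a like sample of all genes, since each had a mean above 5 CPM. Among the 9926 genes at that level 5.46% were 2-fold apart and 17.6% were 1.5-fold apart.

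Cdk9 had the largest difference of the 10 genes. Its log2 ratio was -0.56, a level 1.47-fold higher in replicate 2 (95% exact interval of the count ratio 1.36 to 1.60), and 74.1% of all genes had a smaller difference. Ctr9 had a log2 ratio of 0.39, 1.31-fold higher in replicate 1 (1.20 to 1.42). Ccnt1 followed with 0.33, 1.26-fold higher in replicate 1 (1.17 to 1.36). Leo1 (-0.26) and Paf1 (-0.23) were higher in replicate 2, by 1.20-fold (1.10 to 1.31) and 1.18-fold (1.08 to 1.28). For these 5 genes the interval of the ratio did not include 1, so that the libraries differed by more than counting error. The same held for 57.1% of all genes, and for 66.7% of those whose mean reached 5 CPM.

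For the other 5 genes the interval included 1. Their log2 ratios were -0.07 for Cdc73, 0.08 for Rtf1, 0.06 for Mllt3, 0.04 for Aff4 and -0.001 for Mllt1. The interval of Mllt3 was the widest, from 0.814 to 1.34 in fold, because of its low count. Its counts do not set the ratio more closely than this range. When scaled by library totals alone, 7 genes had an interval without 1, with Rtf1 and Aff4 added to the first 5. The same held for 57.3% of all genes and 66.7% of those whose mean reached 5 CPM. Mllt1 changed sign to 0.06 with library totals. The median log2 ratio of the 10 genes was 0.02, beside 0.004 for all genes. The median size of the ratio without its sign was 0.16 for the 10 genes, beside 0.31 for all genes and 0.27 for genes whose mean reached 5 CPM.

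**Figure D3:**
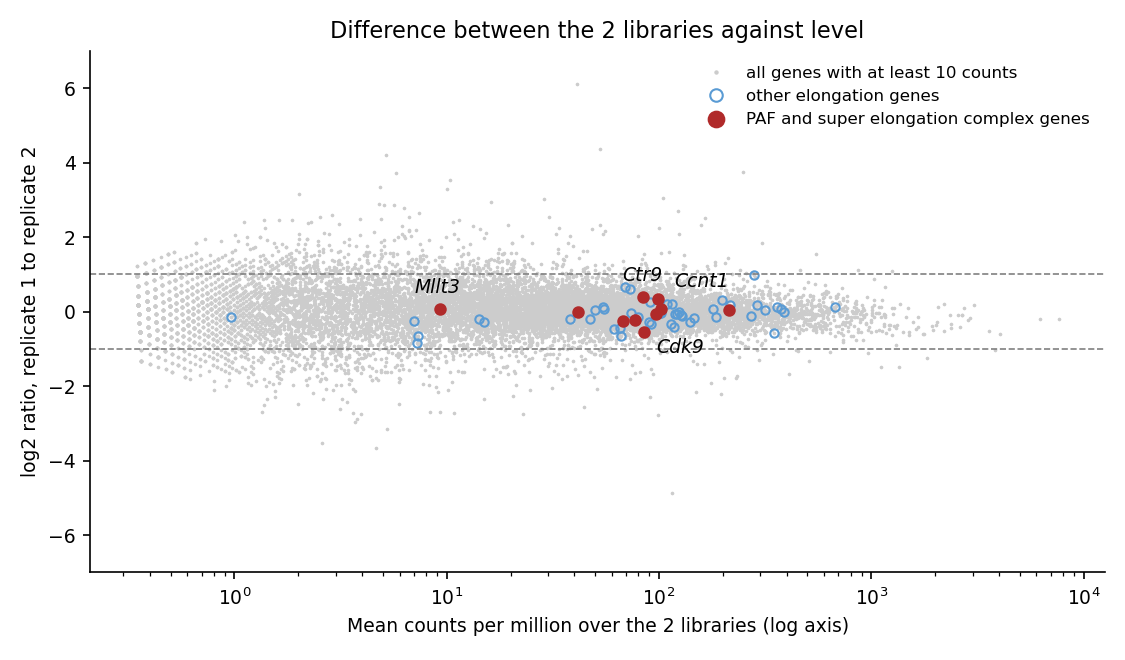
The log2 ratio of replicate 1 to replicate 2 (vertical axis) against the mean CPM of the 2 libraries (log axis), with all genes of at least 10 counts in grey, other elongation genes as open circles and the 10 genes in red. Dashed lines mark 2-fold. All 10 lie between -0.56 (Cdk9) and 0.39 (Ctr9).

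The remaining machinery of elongation was taken from a list of 53 genes in 8 families, of which 48 had a row in the table. Larp7, Supt4a, Ube2b, Iws1 and Tcea1 were not analysed here. With at least 10 counts in total, 47 genes could be compared between the libraries. Ell3, with 3 and 2 counts, was at or under the detection limit in both. None of the 47 genes was 2-fold apart, against 9.11% of all genes and 5.46% of those whose mean reached 5 CPM. At 1.5-fold, 6 were apart (12.8%), against 24.3% of all genes and 17.6% of those whose mean reached 5 CPM. The 47 genes had a median log2 ratio of -0.07, with 18 higher in replicate 1 and 29 in replicate 2. With library totals the split was 22 and 25.

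The partners of the super elongation complex had a median log2 ratio of -0.15, with 1 of 7 genes higher in replicate 1. Aff1, which can take the place of Aff4 as scaffold, had 5441 counts in replicate 1 and 2506 in replicate 2. Its log2 ratio of 0.98 was just under 2-fold, and with library totals it was 1.04. Aff1 was thus higher in replicate 1, while the interval of Aff4 included 1 after TMM scaling. With library totals Aff4 had a log2 ratio of 0.095, and its interval did not include 1. The difference between these ratios was not tested. Per kilobase, Aff1 stood at 2.06 times Aff4 in replicate 1 and 1.07 times in replicate 2. This order turned with the median transcript length, to 0.396 and 0.205 times. Aff3, a further member of the family, had 94 and 103 counts, and Aff4 stood at 20.3 and 16.5 times Aff3 per kilobase on the longest transcript and at 63.8 and 51.8 times with the median transcript length.

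Ccnt2, the other cyclin T, had 2599 and 2624 counts and a log2 ratio of -0.15. Per kilobase it stood at 1.55 times Ccnt1 in replicate 1 and 2.17 times in replicate 2. With joined exons the values were 1.19 and 1.66, and with the median transcript length the order turned, to 0.320 and 0.447 times. Ell2 and Ell, elongation factors that sit in the same complex, kept their order under each length, with Ell2 at 4.36 and 4.16 times Ell on the longest transcript, 2.30 and 2.19 times with joined exons and 21.9 and 20.9 times with the median transcript length. Eaf1 and Eaf2, which bind these factors, had 1719 and 1639 counts and 13 and 14 counts. Ell2 was the highest gene of its family per kilobase (52.7). With joined exons Aff1 had the highest mean (29.5 ± 14.5, SD), beside 27.5 ± 0.979 for Ell2, but lay above Ell2 in replicate 1 only.

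The regulators of P-TEFb went in both directions. Hexim1, which holds P-TEFb inactive together with a small nuclear RNA, had 1302 and 774 counts and a log2 ratio of 0.61. Mepce, which caps that RNA, had 1248 and 723 counts and a log2 ratio of 0.65. Both were thus higher in replicate 1, as Ccnt1 was. Hexim2, a paralog of Hexim1, had 83 and 122 counts and a log2 ratio of -0.64, and it was the lowest of this family per kilobase (3.83).

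The factors on which P-TEFb acts, DSIF and NELF, had a median log2 ratio of -0.07, with 1 of 5 genes higher in replicate 1. Supt5 of DSIF, the highest of its family per kilobase (84.6), had 4745 and 4214 counts and a log2 ratio of 0.04. The NELF genes had log2 ratios from -0.34 (Nelfb) to -0.02 (Nelfcd), and the intervals of Nelfb and Nelfe did not include 1. With library totals the interval of Nelfe included 1, and Nelfcd was higher in replicate 1 (0.03). Nelfb was the lowest of the family per kilobase by the mean (41.6), although Nelfcd lay lower in replicate 2 (43.9, beside 45.6 for Nelfb). With joined exons Nelfa had the lowest mean (30.9), within the spread of Nelfb (33.3 ± 4.56, SD). Nelfb was highest with the median transcript length (168). By their means, all 5 genes of this family were within 2.03-fold of each other per kilobase on the longest transcript.

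Genes that work with the PAF complex had a median log2 ratio of -0.09, with 1 of 5 higher in replicate 1. Wdr61, which is counted as a further subunit of the complex in mammals, had 1198 and 1331 counts and a log2 ratio of -0.28, on the same side as Paf1 (-0.23) and Leo1 (-0.26). Rnf20 and Rnf40, the paired ligases that put ubiquitin on H2B, had log2 ratios of -0.03 and 0.26. With library totals Rnf20 was higher in replicate 1 (0.03). Rnf20 was the lowest of this family per kilobase by the mean (17.1), although Rnf40 lay lower in replicate 2 (15.3, beside 17.0 for Rnf20). Ube2a, a ubiquitin-conjugating enzyme for that mark, was the highest (35.6), although Wdr61 was the highest (69.7) with the transcript of the longest coding sequence.

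Among the histone chaperones, Supt6 had a log2 ratio of 0.18, Supt16 of 0.12 and Ssrp1 of 0.002. The interval of Ssrp1 included 1 after TMM scaling but not with library totals. Ssrp1, a subunit of FACT, was the highest of them per kilobase (142) and Supt6 the lowest (44.9). In the family of TFIIS and elongin genes, Elob was the highest per kilobase (203) and Tcea2 the lowest (3.35). With joined exons Tcea3 had the highest mean (88.4), within the spread of Elob (84.4 ± 14.2, SD). Tcea2 had 75 and 128 counts and a log2 ratio of -0.84.

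The kinases of the polymerase tail and the histone methyltransferases of elongation had a median log2 ratio of 0.18, with 4 of 6 genes higher in replicate 1. Dot1l, the methyltransferase that Mllt1, Mllt3 and Mllt10 also bind, had 3228 and 2375 counts and a log2 ratio of 0.31. Ccnk was the highest of this family per kilobase (46.0). Cdk13 was the lowest (9.19). With the transcript of the longest coding sequence Mllt10 had the lowest mean (22.1), within the spread of Cdk13 (22.2 ± 2.74, SD).

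Subunits of RNA polymerase II had a median log2 ratio of -0.24, with 8 of 12 higher in replicate 2. The largest subunit, Polr2a, had 10358 and 8713 counts and a log2 ratio of 0.12. Polr2d had 762 and 1094 counts and a log2 ratio of -0.65, the largest difference in the family. Polr2e was the highest per kilobase (144), with a log2 ratio of -0.56. Polr2j was the lowest by the mean (16.7), although Polr2c lay lower in replicate 1 (14.6, beside 15.4 for Polr2j). Polr2c was also lowest with joined exons (12.4) and with the transcript of the longest coding sequence (16.8). Aff1, Hexim1, Mepce, Hexim2, Tcea2 and Polr2d were the 6 genes 1.5-fold apart and were picked out after their values were seen.

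**Figure D4:**
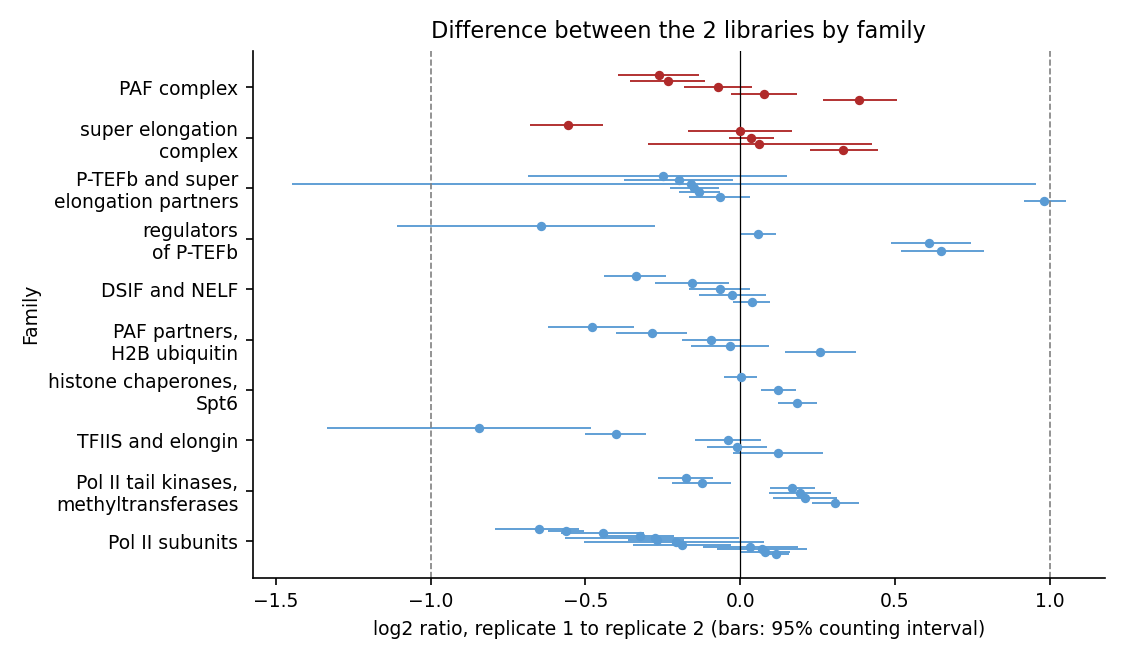
The log2 ratio of replicate 1 to replicate 2 for each gene of the PAF complex and the super elongation complex (red) and of the other elongation families (blue), with bars for the 95% counting interval and dashed lines at 2-fold. Aff1 (0.98) lies farthest right, Tcea2 (-0.84) farthest left, and Cdk9 (-0.56) farthest left among the 10 genes.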

How the data were processed

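RNA-seq counts of CAST/EiJ stem cells were used from 2 libraries of the 10 samples. The authors deposited raw counts per Ensembl gene, with no normalization. The paper names STAR, mapping to the strain's own genome and removal of reads with more than 1 locus. The submitters' processing notes for these libraries instead name TopHat2 2.1.1, SAMtools and HTSeq with GRCm38 (mm10). Which of these made the counts, and the strand setting, are not given in the sources used here, and a mapping to GRCm38 could lose CAST reads at sites that differ. The RNA kit also differs between these sources. A further 7 per-sample columns of the table were left out, since no listed sample has their names. The other 8 samples were not analysed here.

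Levels were CPM by library total. Ratios were scaled by TMM (edgeR 4.0.16, R 4.3.3). They were taken over 13824 genes, those reaching 10 counts when both libraries were summed, after 0.5 CPM had been added. Intervals were exact (Poisson for levels, Clopper-Pearson on the split of counts for ratios), at 95%. Symbols, positions and lengths came from GENCODE M21 on GRCm38 (26807 of 26808 identifiers had a symbol), so lengths are those of the reference strain. Python 3.11.15, pandas 2.3.3 and scipy 1.17.1 were used for the remainder. The ratio, scaled by library totals, was also run on simulated counts with counting error only. Such counts do not show how it behaves with the spread of these libraries. Alternatives were library totals, DESeq2 1.42.0 size factors, other pseudocounts, filters and gene lengths, and each library left out.

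The 10 genes and all lists were chosen with earlier results of these data known. Other elongation genes are named where they are 2-fold apart or highest or lowest of their family per kilobase, except 1 that is not reported here, and all others named (such as paralogs of the 10 genes, Polr2a, Supt16, Nelfcd and Nelfe) were added after the values were seen. No genes of like pattern were sought, since 2 libraries allow no such measure.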

Additional observations from a re-analysis of the deposited data

How the results depend on the processing

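No paired analysis was possible because a single group, the CAST stem cells, could be used. The number of the 10 genes at least 2-fold apart was 0 with each scaling and pseudocount, and 0 at 1.5-fold. Their summed level, 878 CPM, ranged from 863 to 893 CPM when 1 library was left out. Their median log2 ratio, 0.02, was 0.08 with library totals and 0.02 with DESeq2 size factors. With library totals, 1 other elongation gene was 2-fold apart (Aff1) in place of 0. The number of all genes 2-fold apart, 1259, was 540 with a pseudocount of 2 CPM and 542 when genes averaging under 5 CPM were left out. Each of these changes reduces the part of genes with few counts. It ranged from 849 to 1811 under the other alternatives. Another gene length moved the level per kilobase by more than the SD of the libraries in 20 cases over the 10 genes. These were all 10 genes with the median transcript length and all but Leo1 and Cdk9 with joined exons. With the transcript of the longest coding sequence they were Leo1 and Cdk9 only. The median transcript length, which counts many short fragments, gave Aff4 as the highest (334 CPM per kilobase) and Mllt3 again as the lowest (5.72). Within the PAF complex it gave Rtf1 as highest (144) and Leo1 as lowest (31.1) in place of Paf1 and Cdc73. By the means it also gave other highest or lowest genes in the families of the PAF complex partners (Wac, Rnf40) and of the tail kinases (Setd2, Cdk12). The use of the transcript with the longest coding sequence and the level of 5 CPM were chosen after seeing the data. Among the 10 genes, Mllt3 had the lowest counts (140 and 122).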
